A study of Mus musculus with 4 samples.

Results

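Potassium channel genes were described in the mouse pituitary as a gene group chosen by name: symbols that start with Kcn, without those that end in "os", and with at least 50 unique transcript counts (UMIs) summed over all libraries. Of 99 such symbols among the 32285 genes of the count tables, 2 ended in "os" and 18 fell under the minimum, which left 79 members. The members held 0.604% to 0.829% of the UMIs of a library. Just above the minimum were Kcnk7 with 69 UMIs and Kcnn4 with 72, and just under it were Kcnk4 with 40 and Kcns1 with 37.

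The data are single-nucleus RNA sequencing of pituitary glands of wild-type UM-HET3 mice, a genetically mixed stock, and all 4 libraries share that stock and tissue. Each library was made from 1 pool of 3 glands, and the labels give 1 library for each sex at 5 months and at 22 months. No treatment or transgene is named. With 1 library per group there is no replicate of a group, so the tests below treat the 2 libraries of an age, or of a sex, as repeats of it.

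Potassium channels let potassium leave the cell and so hold the resting potential and end action potentials. Endocrine cells of the anterior pituitary fire spontaneously, and dopamine, somatostatin and releasing hormones act in part by opening or closing such channels. The members were grouped by role into 15 voltage-gated pore subunits (Kcna to Kcnd), 8 modifier subunits that act only in company of those (Kcnf, Kcng, Kcns, Kcnv), 5 KCNQ subunits, 8 EAG, ERG and ELK subunits (Kcnh), 8 calcium- or sodium-activated channels (Kcnma1, Kcnn, Kcnt, Kcnu1), 12 inward rectifiers (Kcnj), 10 tandem-pore leak channels (Kcnk), 10 auxiliary subunits (Kcnab, Kcnip, Kcnmb) and 3 other transcripts. The last 3 are Kcnq1ot1, a noncoding RNA that runs against Kcnq1, the antisense RNA Kcnmb4os2, and Kcnrg, a regulator of channel assembly.

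The promoters of 5 members are shown, chosen by the size of a fitted fold or of a ratio between classes. Kcnk10 had the largest rise between labelled ages in lactotrope-like nuclei (among members counted in every library), and Kcnn3 the largest fall. Kcnq5 and Kcnh7 had the 2 largest fitted rises in gonadotrope-like nuclei, and Kcnk13 had the largest ratio to the next class. Kcnq5 and Kcnh7 entered their tests by the libraries of the higher labelled age alone, so their p-values are no independent support. Kcnk13 had too few UMIs in the libraries of the lower labelled age to count among the class patterns below. Each run holds the 150 bases just before the RefSeq start site on GRCm38.p6, 5′ to 3′ on the gene's strand. Capitals mark a GC box (GGGCGG) or a CCAAT box (CCAAT), searched on both strands.
Kcnk10: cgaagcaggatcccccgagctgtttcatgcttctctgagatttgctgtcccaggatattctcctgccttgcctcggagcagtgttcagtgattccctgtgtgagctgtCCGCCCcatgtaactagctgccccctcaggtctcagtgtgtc
Kcnn3: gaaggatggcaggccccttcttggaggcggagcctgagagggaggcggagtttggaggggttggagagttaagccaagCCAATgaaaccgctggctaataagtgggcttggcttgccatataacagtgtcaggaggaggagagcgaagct
Kcnq5: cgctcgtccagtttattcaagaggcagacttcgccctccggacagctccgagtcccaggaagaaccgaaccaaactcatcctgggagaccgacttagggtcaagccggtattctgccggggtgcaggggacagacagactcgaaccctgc
Kcnh7: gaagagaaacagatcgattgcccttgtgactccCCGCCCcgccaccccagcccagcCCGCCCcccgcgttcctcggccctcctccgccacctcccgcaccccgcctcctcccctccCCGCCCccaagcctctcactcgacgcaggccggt
Kcnk13: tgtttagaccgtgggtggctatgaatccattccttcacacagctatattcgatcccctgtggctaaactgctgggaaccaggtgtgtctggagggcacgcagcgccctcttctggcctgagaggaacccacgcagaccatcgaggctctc

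The Kcnk10 stretch lies on the minus strand at chr12:98578214-98578363, the Kcnn3 stretch on the plus strand at chr3:89520014-89520163 and the Kcnq5 stretch on the minus strand at chr1:21961943-21962092. The Kcnh7 stretch lies on the minus strand at chr2:63184288-63184437, and the Kcnk13 stretch on the plus strand at chr12:99964349-99964498. All are upstream of the gene's first exon as RefSeq places it, and the Kcnk10 start site lies 97 bases from the one in GENCODE M21. A GC box occurred 3 times in the Kcnh7 stretch and 1 time in that of Kcnk10, and the Kcnn3 stretch held a CCAAT box. Windows of 300 bases (250 before the start site and 50 after it) were at hand for 57 of the 79 members, 77 windows in all. Of these, 50.65% held a GC box against 35.7% of the 32851 windows of all genes, 36.4% against 37.4% a CCAAT box, and 3.90% against 13.6% a TATA box (TATAAA). No member window held the cyclic AMP response element (TGACGTCA) or the full palindromic estrogen response element, which 1.79% and 0.0700% of all windows held. The median GC content was 61% in member windows and 52.7% in all. These matches describe letters and not binding, and no match says only that those letters are not in the window.

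Before the results, the libraries were checked against their labels. Xist, the RNA of the inactive X chromosome, was counted in 0.1% and 0.218% of nuclei of the libraries labelled 5-month males and 5-month females, and in 97.4% and 85.7% of those labelled 22-month males and 22-month females. Transcripts of 4 Y-linked genes stood at 651 and 649 CPM (UMIs scaled to a common library total) in the libraries labelled 5 months and at 0.497 and 0.530 in those labelled 22 months. Sex-chromosome transcripts thus went against the labels of 2 libraries, 5-month females and 22-month males, and divide the libraries as labelled age does. Below, groups are called by their labels, and labelled age and the sex-chromosome difference cannot be told apart. If the labels of those 2 libraries were exchanged, each contrast named labelled age below would be one of sex, and each named labelled sex one of age. The files used here do not settle which holds. The libraries held 33328821, 35240987, 65773807 and 49262366 UMIs in the order males then females at 5 months, males then females at 22 months. Every set of 4 values below keeps that order. After filters and removal of doublet calls, 7003, 6411, 10044 and 7042 nuclei remained with medians of 3452 to 4711 UMIs, and pairs of libraries shared 14 to 43 barcodes.

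Nuclei fell into 24 clusters made without the potassium channel, hormone and sex-linked genes, and 21 of them were named by marker genes. A class was used if each library gave it at least 30 nuclei, which left 11, 6 of hormone cells (lactotrope-, somatotrope-, gonadotrope-, thyrotrope-, corticotrope- and melanotrope-like) and 5 of other cells (stem-, pituicyte-, fibroblast-, endothelial- and macrophage-like). The fibroblast-like cluster also held mural markers. In 3 classes, different clusters held the nuclei of the 2 labelled ages. For lactotrope-like nuclei these were cluster 5 (2132 and 2419 of its 4557 nuclei from the libraries labelled 5 months) and clusters 18 to 21, for gonadotrope-like nuclei clusters 8 and 22, and for somatotrope-like nuclei clusters 0 and 2 against cluster 1. Melanotrope-like nuclei of cluster 4 came almost wholly from 5-month males (278 of 288). Hormone transcripts were also counted outside their own class: in stem-like nuclei, the summed lactotrope markers, mostly prolactin, stood at 10850, 5239, 71280 and 25190 CPM.

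Levels by class are descriptions, with no test, and are CPM of summed nuclei. Transcripts were read at the 3′ end with no scale per length, so levels are compared between classes for 1 gene and never between genes. Summed over all members, the level was highest in gonadotrope-like nuclei in each of the 4 libraries, at 10564, 9713, 13713 and 13449 CPM. A large part of this sum was 1 gene, Kcnd2, with a mean of 5976 CPM there. The sum in lactotrope-like nuclei was 5877, 6359, 6637 and 8273 CPM. Kcnd2 was a smaller part of it, as its values below show. Without Kcnd2, gonadotrope-like nuclei stood below lactotrope-like nuclei in both libraries labelled 5 months. Which class then leads was not worked out. The summed level was low in endothelial-like nuclei, at 1203 to 1538 CPM, and in macrophage-like nuclei, at 1256 to 2695 CPM, and these ranges overlapped.

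Of the 79 members, 24 were highest in the same class in all 4 libraries with at least 20 UMIs there in each. The classes were gonadotrope-like for 6 of them, corticotrope-, lactotrope-, melanotrope-, somatotrope- and stem-like for 3 each, thyrotrope-like for 2 and fibroblast-like for 1. The others changed their leading class between libraries or had fewer UMIs.

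**Figure D1:**
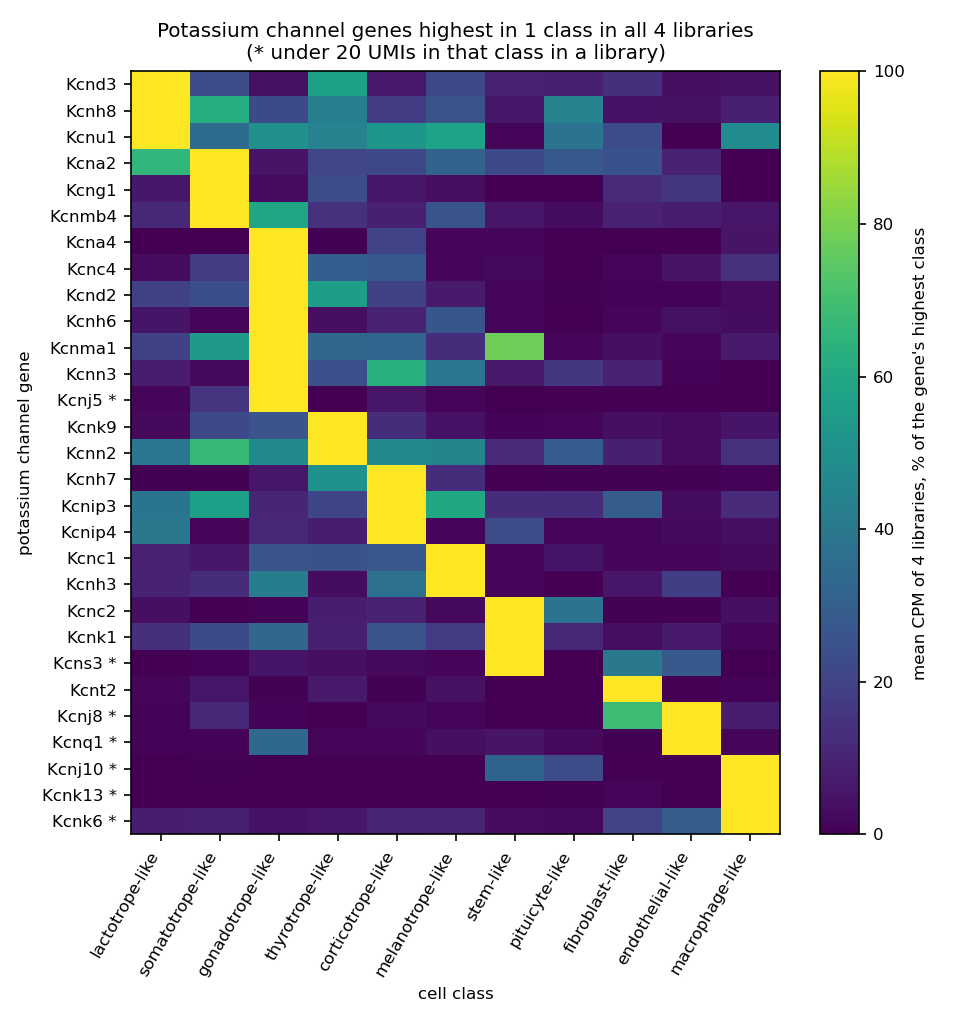
Mean CPM over 4 libraries of members that were highest in 1 class in all libraries (rows), in 11 cell classes (columns), as a percentage of each gene's highest class. Rows without a star had at least 20 UMIs in that class in each library, and Kcnk13 and Kcnt2 show the emptiest rows outside their leading class.

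Gonadotrope-like nuclei led for 6 members. Kcnd2, a pore of the A-type current that delays firing, stood at 5566, 5028, 6576 and 6734 CPM there and at 2681, 3124, 4514 and 2990 CPM in thyrotrope-like nuclei, the next class. Kcnh6, an ERG channel, was at 43.7, 41.7, 53.0 and 29.0 CPM, at least 2.81 times the next class in any library. Kcna4, another A-type pore, was at 42.2, 74.2, 13.8 and 64.0 CPM, and Kcnc4 at 43.7, 26.5, 28.6 and 36.4 CPM. Their smallest ratios to the next class were 2.25 and 2.23. Kcnma1, the large-conductance calcium-activated (BK) channel, led by a smallest ratio of only 1.11 over stem-like nuclei, with means of 1764 and 1378 CPM.

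Corticotrope-like nuclei led for Kcnh7, an ERG channel, at 700, 770, 782 and 1211 CPM. Thyrotrope-like nuclei came next at 311, 611, 336 and 524 CPM. Kcnip3, a calcium-binding protein of A-type channels, was at 193, 198, 206 and 179 CPM in corticotrope-like nuclei, a narrow range. Kcnip4, of the same protein family, was at 425, 717, 394 and 1982 CPM, and the 22-month female library stood far above the others. In that library 245 of the 853 Kcnip4 UMIs of the class came from 1 of 67 nuclei.

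The other hormone classes each led for a few members. Lactotrope-like nuclei were highest for Kcnh8, an ELK channel, at 1452, 1449, 1408 and 1450 CPM, nearly the same in all libraries. They also led for the A-type pore Kcnd3 and for Kcnu1, a relative of BK. Somatotrope-like nuclei led for Kcnmb4, an auxiliary subunit of BK, at 120, 127, 125 and 136 CPM, for Kcna2, and for the modifier Kcng1 (37 to 42 UMIs per library). Melanotrope-like nuclei led for Kcnc1, a pore of fast repolarization, at 73.9, 80.4, 55.1 and 65.4 CPM, and for Kcnh3. Thyrotrope-like nuclei led for the leak channel Kcnk9 at 88.1, 82.5, 79.2 and 50.2 CPM, and for the small-conductance calcium-activated channel Kcnn2, with a mean of 235 CPM.

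Outside the hormone classes the clearest patterns were those of Kcnt2 and Kcnk13. Kcnt2, a sodium-activated channel, stood at 625, 789, 702 and 1012 CPM in fibroblast-like nuclei, at least 6.23 times the next class in any library. Kcnk13, a leak channel known from microglia and other macrophages, had 18, 17, 40 and 87 UMIs in macrophage-like nuclei, or 129, 202, 224 and 409 CPM. In fibroblast-like nuclei, the next class, it had 2, 0, 0 and 2 UMIs, and the smallest ratio was 14.6. It missed the minimum of 20 UMIs in both libraries labelled 5 months. Stem-like nuclei led for Kcnk1 (mean 76.4 CPM) and Kcnc2 (227 CPM). Kcnq1, which repolarizes epithelial and heart cells, was highest in endothelial-like nuclei at 115, 307, 169 and 439 CPM, with 10 UMIs in the smallest library.

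Inward rectifiers carry the response to dopamine and somatostatin (Kcnj3, Kcnj5, Kcnj6 and Kcnj9, opened by G proteins) and to energy state (Kcnj8 and Kcnj11, the ATP-sensitive pores). Kcnj3 was broad in hormone cells, with means of 618 CPM in somatotrope-like, 469 in melanotrope-like and 361 in lactotrope-like nuclei. Kcnj6 had means of 345, 267 and 260 CPM in melanotrope-, lactotrope- and corticotrope-like nuclei. Kcnj5 was sparse, with 4, 18, 7 and 11 UMIs in gonadotrope-like nuclei, its highest class. Kcnj9 had a mean of 18.3 CPM in corticotrope-like nuclei (6 to 21 UMIs per library), and Kcnj11 one of 4.39 CPM in somatotrope-like nuclei. Kcnj8 was highest in endothelial-like nuclei (2, 12, 9 and 12 UMIs) and Kcnj10, a glial potassium buffer, in macrophage-like nuclei (3, 6, 4 and 13 UMIs).

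The same description holds for the remaining members of known place in these cells. Kcnb2, a delayed rectifier pore, had close means in gonadotrope-, lactotrope- and thyrotrope-like nuclei of 1085, 1068 and 1015 CPM. Kcnh2, the ERG channel of the heart, was even over corticotrope-, lactotrope- and gonadotrope-like nuclei at 29.6, 27.1 and 26.9 CPM. Kcnk3, an acid-sensing leak channel, was highest in gonadotrope-like nuclei on average at 57.3 CPM, and Kcna1 had its highest mean, 8.24 CPM, in stem-like nuclei.

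The comparison between labelled ages was fitted by edgeR in each class over all genes, with labelled sex as a term. A gene passed at a Benjamini-Hochberg adjusted p under 0.05. Over the 11 classes, 73 members entered 325 tests and 63 of these passed (5.93% of the tests of all genes did), for 42 members, 15 of them in more than 1 class. Of the 63, 62 had the same direction in both labelled sexes, and 56 had both libraries of one age outside the range of the other. Only 8 passed again whichever library was left out, and 30 also passed with DESeq2. The share of all genes with the same direction or with labelled ages apart was not counted. Genes that passed are prone to both, so the counts of 62 and 56 are no separate support. The filter on low counts asks for a level of 10 counts in the median library, reached in at least 2 libraries. Of the 63, 14 came through it by the libraries of the higher age alone. These had to differ in order to be tested, so their p-values are no independent support and their values stand as a description. They are Kcnq5, Kcnh7, Kcna6 and Kcnh3 in gonadotrope-like, Kcng2, Kcng4, Kcnh3, Kcns2 and Kcnv2 in lactotrope-like, Kcnd3, Kcnj3 and Kcnmb2 in stem-like, Kcnd3 in corticotrope-like and Kcnma1 in macrophage-like nuclei. With no filter, 13 of the 14 had an adjusted p under 0.05, all but Kcnma1 (0.084). Each fit rests on 1 residual degree of freedom, so these p-values do not measure how a difference repeats between pools. The 6 members Kcna1, Kcnf1, Kcnj4, Kcnj12, Kcnn4 and Kcnk7 were too low to be tested in any class.

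**Figure D2:**
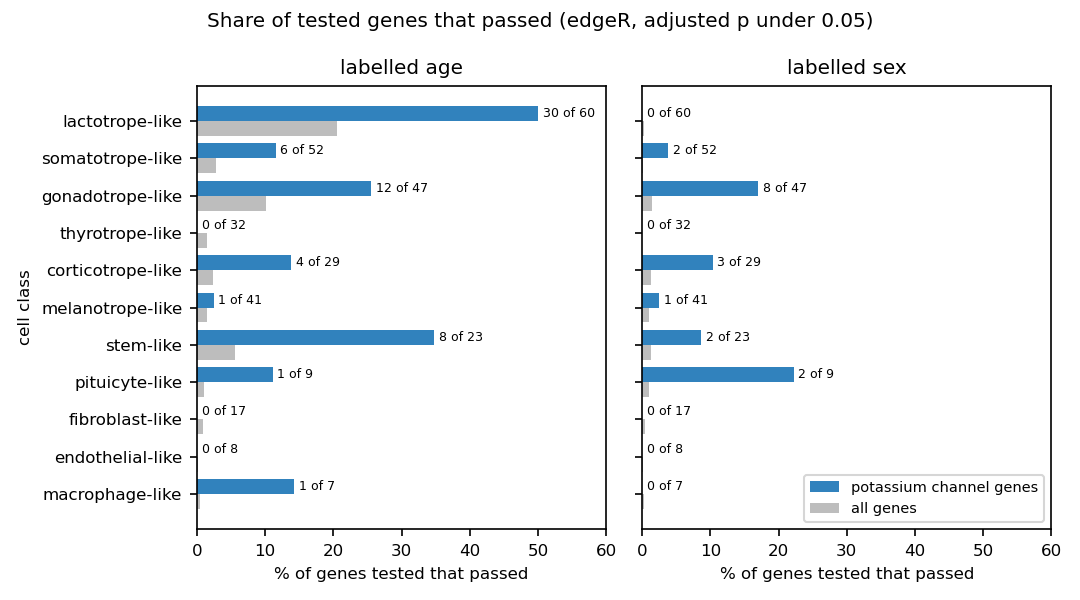
Percentage of tested genes that passed at an adjusted p under 0.05 in edgeR, for potassium channel genes (blue, with counts) and all genes (grey) in 11 classes, for labelled age (left) and labelled sex (right). For labelled age, lactotrope-like nuclei stand out with 30 of 60 members, and they also have the longest grey bar, 20.5%.

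Lactotrope-like nuclei had the most calls of any class. The leak channel Kcnk10 and the calcium-activated Kcnn2 rose, while Kcnn3, Kcnk2 and the BK subunit Kcnmb2 fell. Of 60 members tested, 30 passed (50%, against 20.5% of all 16511 genes), 14 higher and 16 lower at 22 months, where 11.0% and 9.53% of all genes passed. By role, the calls were 7 of 12 voltage-gated pores, 7 of 10 auxiliary subunits, 4 of 7 leak channels and 3 of 7 calcium- or sodium-activated channels. They were 2 of 8 in the Kcnh group, 3 of 3 other transcripts, and 0 of 5 KCNQ subunits and 0 of 4 inward rectifiers (each 2 at an unadjusted p under 0.05). Modifiers gave 4 of 4, but all 4 came through the count filter by 1 age alone and so had to differ to be tested. The same holds for Kcnh3 in the Kcnh group. DESeq2 called 20 of the 60 in lactotrope-like nuclei (33.3%, against 11.1% of all genes). With edgeR and each library left out, in the order of libraries above, 11, 6, 19 and 6 passed. The median log2 fold of the 60 was -0.04, and that of all genes -0.02. In the same nuclei the pituicyte markers (5 of 5 counted) summed to 7.14, 15.7, 136 and 258 CPM and the fibroblast markers (5 of 5) to 88.6, 76.8, 214 and 290 CPM. Their part in these results was not tested. Fitted folds are scaled by TMM and stand above plain CPM folds by a median of 0.18 on the log2 scale in this class and of 0.12 in gonadotrope-like nuclei.

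Kcnn3, a small-conductance calcium-activated channel, was at 8.79 and 23.7 CPM at 5 months and at 1.03 and 0.455 CPM at 22 months in lactotrope-like nuclei. The 2 labelled ages were far apart in both labelled sexes. The fitted log2 fold was -4.08 (SE 0.56, adjusted p = 0.00394). In gonadotrope-like nuclei, its highest class, Kcnn3 did not pass (log2 fold -0.02, adjusted p = 0.963).

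Kcnk10, a leak channel that opens to stretch and lipids, was at 6.18 and 4.75 CPM at 5 months and at 42.1 and 79.2 CPM at 22 months. Both older libraries were well above both younger ones (log2 fold 3.62, SE 0.28, adjusted p = 0.000376). Its close relative Kcnk2 went the other way, from 127 and 153 CPM to 33.8 and 20.9 CPM (log2 fold -2.20, SE 0.22, adjusted p = 0.00113). Kcnk2 had its highest mean, 473 CPM, in somatotrope-like nuclei, whose markers in lactotrope-like nuclei are given below. The counting intervals of the ratios, 22 over 5 months, were 5.05 to 9.40 and 12.3 to 23.2 for Kcnk10 in labelled males and females, and 0.241 to 0.292 and 0.122 to 0.153 for Kcnk2.

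Kcnn2, another small-conductance channel, rose from 60.3 and 52.6 CPM to 115 and 142 CPM (log2 fold 1.37, SE 0.14, adjusted p = 0.00126). Kcnn3, Kcnk10, Kcnk2 and Kcnn2 kept an adjusted p under 0.05 in lactotrope-like nuclei whichever library was left out, with a highest value of 0.0428. Kcnk12, another leak channel, and Kcnk1 and Kcnn1 also rose, with log2 folds of 0.84, 1.24 and 1.46, but not whichever library was left out.

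**Figure D3:**
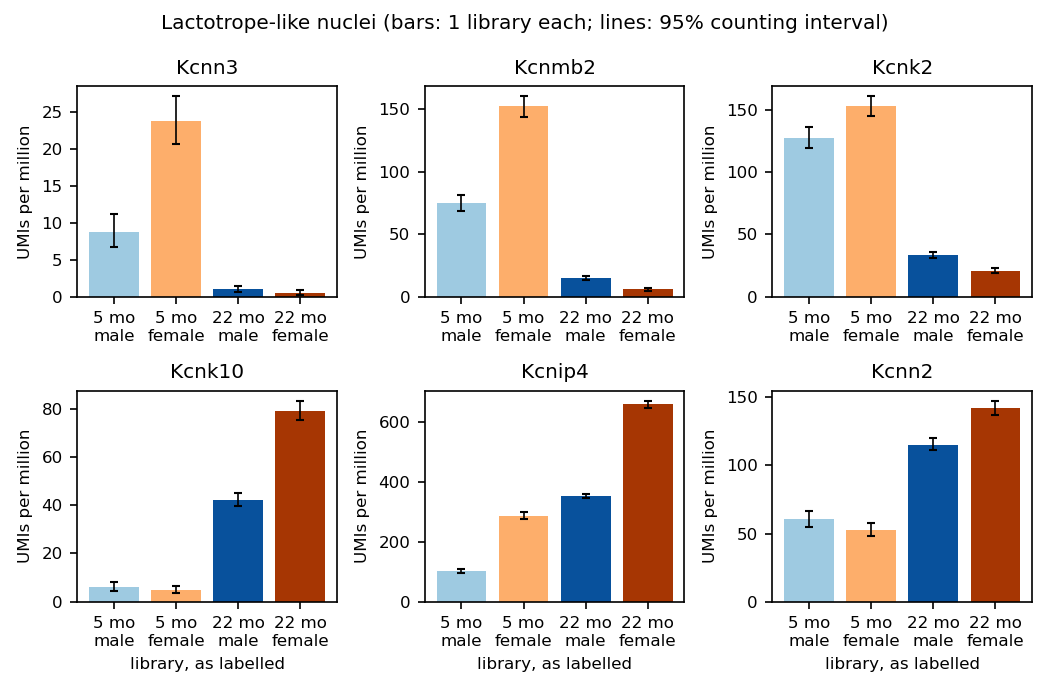
CPM of 6 members in lactotrope-like nuclei, 1 bar per library as labelled, with the 95% interval of counting error. Kcnn3, Kcnmb2 and Kcnk2 are higher in both 5-month libraries and Kcnk10, Kcnip4 and Kcnn2 in both 22-month libraries.

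Auxiliary subunits also moved, 7 of the 10 tested (3 higher, 4 lower). Kcnmb2, which makes BK channels inactivate, fell from 74.7 and 152 CPM to 15.2 and 6.07 CPM (log2 fold -3.22, SE 0.49, adjusted p = 0.0057; 0.05 without 5-month females). Somatotrope-like nuclei held far more Kcnmb2, with a mean of 1020 CPM, and summed somatotrope markers in lactotrope-like nuclei were 40610, 25850, 18040 and 9127 CPM, nearly all growth hormone. Without the hormone gene these sums were 14.4, 20.8, 12 and 9.77 CPM. Kcnk2, Kcna2, Kcnmb4 and Kcnmb4os2, which also fell, had their highest means in somatotrope-like nuclei too, as did Kcnk10, which rose. The part of somatotrope transcripts in these results and in that of Kcnmb2 was not tested. Kcnip4 rose from 102 and 287 CPM to 354 and 660 CPM (log2 fold 1.67, SE 0.17, adjusted p = 0.00112), with an adjusted p of 0.223, 0.0535 and 0.324 without 5-month males, 22-month males and 22-month females. Kcnab1 and Kcnip1 also rose, and Kcnmb3, Kcnmb4 and Kcnip2 fell.

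Among pores, Kcnd2 rose from 692 and 948 to 1205 and 1751 CPM (log2 fold 1.03, adjusted p = 0.00364), and Kcnd3 and Kcnb2 rose by log2 folds of 0.46 and 0.86. The delayed rectifiers Kcna2 and Kcna5 and the fast pores Kcnc1 and Kcnc2 fell, with log2 folds from -2.57 for Kcna5 to -1.03 for Kcnc2. Kcnh3 and Kcnh6, an ELK and an ERG channel, fell by 2.52 and 1.87. Kcng2 fell (16, 22, 5 and 4 UMIs) and Kcng4 fell (8, 7, 2 and 1 UMIs), while Kcns2 (0, 0, 30 and 53 UMIs) and Kcnv2 (1, 3, 61 and 54 UMIs) rose. These 4 and Kcnh3 came through the count filter by 1 age alone. For Kcns2, with a floor of 3 counts, the level was at least 3.12-fold and 7.91-fold higher in labelled males and females.

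The inward rectifiers of lactotrope-like nuclei did not pass. Kcnj3 was at 432, 413, 291 and 309 CPM (log2 fold -0.31, adjusted p = 0.109), and Kcnj6 at 262, 316, 222 and 270 CPM (log2 fold -0.05, adjusted p = 0.783). Kcnma1 (log2 fold -0.10, adjusted p = 0.592) and Kcnh2 (log2 fold 0.05, adjusted p = 0.844) did not pass either. Of 27 partner genes listed for their known link to these channels, 21 were tested and 7 passed, where 20.5% of all genes passed. Drd2, a dopamine receptor that acts on Kcnj channels, fell from 192 and 209 to 105 and 115 CPM. Gabbr2, a subunit of the GABA-B receptor, the A-channel partner Dpp6 and Gnai1 fell too, and Hcn2 and Sstr1 were among those that rose.

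Gonadotrope-like nuclei showed the largest fitted rises among members counted in every library. Of 47 members tested, 12 passed (25.5%, against 10.1% of all genes), 9 higher and 3 lower at 22 months (6.34% and 3.76% of all genes). Kcnq5, a pore of the muscarine-sensitive M current, had 7 and 8 UMIs at 5 months and 361 and 164 at 22 months, or 5.09, 6.06, 184 and 110 CPM. Kcnh7 had 9 and 4 UMIs against 270 and 84, or 6.55, 3.03, 138 and 56.6 CPM. For both, the older libraries lay far above the younger ones, and both came through the count filter by the older libraries alone.

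The log2 folds were 4.81 for Kcnq5 (SE 0.30, adjusted p = 7.32e-07) and 4.43 for Kcnh7 (SE 0.30, adjusted p = 1.83e-06), values that are no independent support for that reason. The UMIs of Kcnq5 came from 103 and 37 nuclei in the older libraries, with at most 20 and 17 UMIs in 1 nucleus. Those of Kcnh7 came from 99 and 20 nuclei, with at most 12 and 18. Kcnh7 was highest in corticotrope-like nuclei, and all 5 corticotrope markers were counted in gonadotrope-like nuclei, where those other than Pomc summed to 5.09, 6.82, 36.7 and 17.5 CPM. Other marker lists were also higher there in the older libraries. The lactotrope markers other than prolactin (5 of 5 markers counted) summed to 36.4, 39.4, 252 and 263 CPM, and the pituicyte markers (4 of 5) to 10.9, 11.4, 77.0 and 80.9 CPM. The fibroblast markers (5 of 5) summed to 9.46, 9.09, 38.8 and 30.3 CPM. The part of these lists in the results for gonadotrope-like nuclei was not tested. The gonadotrope markers without the hormone genes summed to 2110, 2022, 3175 and 2788 CPM.

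**Figure D4:**
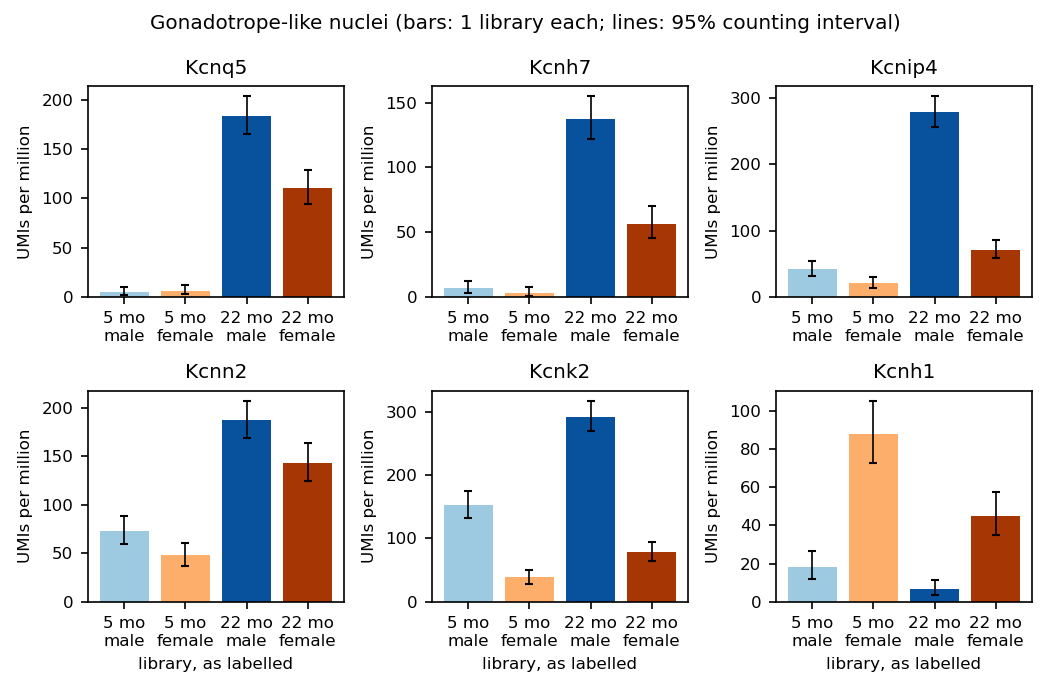
CPM of 6 members in gonadotrope-like nuclei, 1 bar per library as labelled, with the 95% interval of counting error. Kcnq5, Kcnh7, Kcnip4 and Kcnn2 are higher in both 22-month libraries, and Kcnk2 and Kcnh1 differ between the labelled sexes at both ages in opposite directions.

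Other members that rose in gonadotrope-like nuclei were Kcnip4 (41.5, 20.5, 278 and 71.4 CPM, log2 fold 2.50, adjusted p = 4.03e-05) and Kcnn2 (72.8, 47.7, 187 and 143 CPM, log2 fold 1.58, adjusted p = 0.000213). Both had their ages fully apart. Kcnip4 lost its pass without 5-month males (adjusted p = 0.146) or 5-month females (0.291), and Kcnn2 without 5-month females (0.126). Kcna6, a delayed rectifier pore, had 3, 6, 36 and 22 UMIs (log2 fold 2.41), and like Kcnh3 it came through the count filter by 1 age alone. Kcnma1 rose by a log2 fold of 0.80 (adjusted p = 0.0365). Kcnh3 fell, with 23, 15, 8 and 0 UMIs, as did the antisense RNA Kcnmb4os2 and Kcnh1, whose log2 fold of -0.97 turned to 0.62 without 5-month females. DESeq2 called 4 of the 47 members, and edgeR 4, 2, 7 and 10 with each library left out in turn. With DESeq2 the share was 8.51% of these members, against 2.85% of all genes. Of 16 partners tested with edgeR on all libraries, 5 passed, where 10.1% of all genes passed. All 5 were higher, among them Dpp6, Dpp10, Gng2 and Abcc8, the sulfonylurea receptor.

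Stem-like nuclei had 8 of 23 tested members pass (34.8%, against 5.65% of all genes), 7 higher and 1 lower at 22 months (2.79% and 2.85% of all genes). Of the 7, Kcnd3, Kcnj3 and Kcnmb2 came through the count filter by the older libraries alone, so their tests are no independent support. The fit gave all genes the same spread in this class, so its p-values cannot be ranked against those of lactotrope- or gonadotrope-like nuclei. Kcnh5, an EAG channel, rose from 20.6 and 20.1 CPM to 83.3 and 73.5 CPM (log2 fold 1.90, SE 0.30, adjusted p = 3.47e-08). Kcnd3 rose from 7.72 and 9.26 CPM to 40.0 and 49.7 CPM (log2 fold 2.33, SE 0.41, adjusted p = 1.14e-06). Both had the ages apart. Kcnd3 came through the count filter by the older libraries alone, which makes its test no independent support, while Kcnh5 did not and passed whichever library was left out. DESeq2, which called 0 of the 23 members (7 at an unadjusted p under 0.05), gave them adjusted p of 0.079 and 0.159.

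Kcnk1, a weak leak channel, fell from 111 and 94.2 to 47.8 and 53.0 CPM (log2 fold -1.10, adjusted p = 0.000148), and lost its pass without 5-month males or 5-month females (0.177 and 0.0784). Kcnc2 rose from 147 and 139 to 207 and 414 CPM. Kcnd2 (52.7, 29.3, 140 and 86.5 CPM), Kcnh8, Kcnj3 and Kcnmb2 rose as well, and these 4 and Kcnd3 had their highest means in hormone classes. The summed lactotrope markers given above for stem-like nuclei were higher in the 22-month library of each labelled sex. Without prolactin they were 180, 380, 381 and 457 CPM, but their part in these results was not tested. One nucleus gave 61.9% of the Kcnmb2 UMIs and 31.0% of the Kcnj3 UMIs of the 22-month female library, and both folds turned to -0.12 and -0.07 when doublet calls were kept in, a setting in which 3 of 37 members passed. Kcnh5 had its highest mean, 49.4 CPM, in stem-like nuclei, with 27.9 CPM in gonadotrope-like nuclei and 23.3 CPM in lactotrope-like nuclei.

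Somatotrope-like nuclei had 6 of 52 members pass (11.5%, against 2.77% of all genes), 5 higher and 1 lower (2.05% and 0.722% of all genes). Kcnq3, an M-current pore, was at 4.87, 50, 22.7 and 144 CPM, and Kcnt2 at 8.49, 33.8, 17.3 and 128 CPM. In both, the older library was higher within each labelled sex, and the ages overlapped because labelled females were higher at each age. Their log2 folds were 1.86 (SE 0.19, adjusted p = 0.012) and 1.62 (SE 0.23, adjusted p = 0.0272), and they turned to -0.16 and -0.18 without the 22-month female library. Kcnd3 rose from 40.6 and 51.5 to 86.6 and 100.2 CPM (log2 fold 1.10, adjusted p = 0.0132). Its highest class was lactotrope-like, and summed lactotrope markers in somatotrope-like nuclei were 6918, 3854, 50280 and 19170 CPM. Without prolactin they were 32.4, 49.1, 78.0 and 74.9 CPM, and their part in the Kcnd3 result was not tested. Kcnk9, which passed as lower, went from 27.4 and 20.7 to 7.53 and 10.1 CPM (log2 fold -1.38, adjusted p = 0.0479). Kcnab1 and Kcnq1ot1 also rose. Without 5-month females 4 members passed, and without any other library 0.

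**Figure D5:**
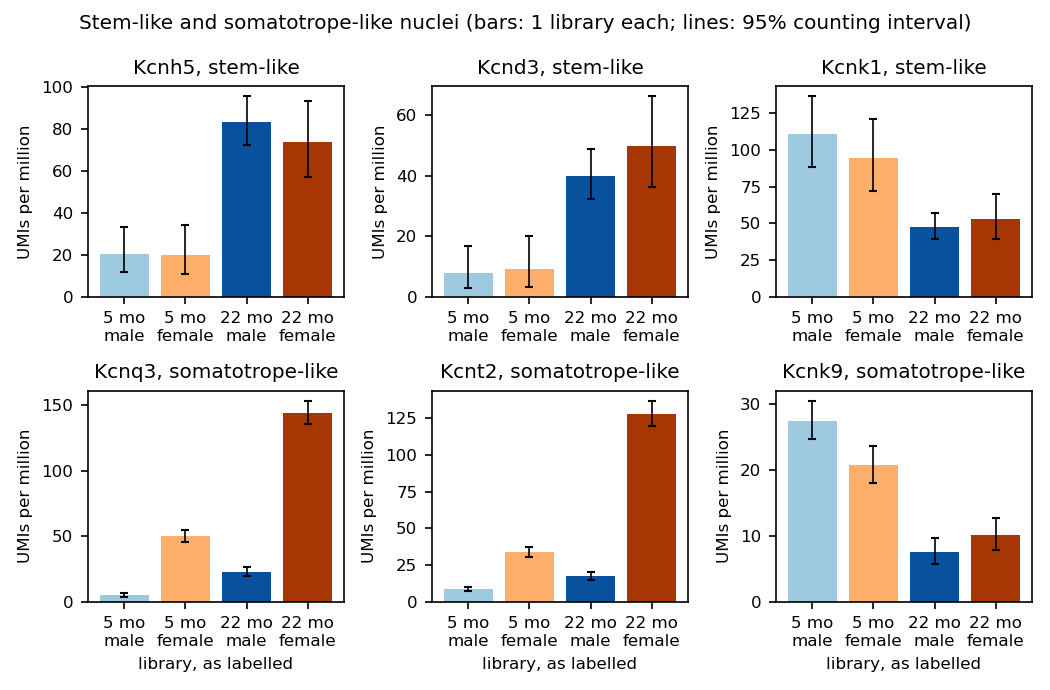
CPM of 3 members in stem-like nuclei (top) and 3 in somatotrope-like nuclei (bottom), 1 bar per library as labelled, with the 95% interval of counting error. Kcnh5 and Kcnd3 are higher and Kcnk1 lower in both 22-month libraries, while Kcnq3 and Kcnt2 are highest in the 22-month female library.

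The remaining classes gave few calls for labelled age. In corticotrope-like nuclei 4 of 29 members passed (13.8%, against 2.38% of all genes), all with a fitted rise (1.59% of all genes): Kcnd3 (0, 5, 26 and 21 UMIs), Kcnq3, Kcnmb2 and Kcnip4. Kcnip4 was higher at 22 months in labelled females but not in labelled males (ratios of 2.77 and 0.927). Kcnd3 lost its pass without 5-month males (adjusted p = 0.206) or 22-month females (0.338), and came through the count filter by the older libraries alone. In these nuclei 0 members passed with DESeq2 (3 at an unadjusted p under 0.05), without the 22-month female library (5 at that level) or without labelled sex as a term (5 at that level). Of the Kcnq3 UMIs of the 22-month female library, 24 of 49 came from 1 nucleus. Summed lactotrope markers were 8054, 3675, 51870 and 19720 CPM in corticotrope-like nuclei, and 78.4, 42.0, 116 and 139 CPM without prolactin. Their part in the Kcnd3 result was not tested. Dpp10 and Dpp6, which speed A-type channels, rose in the same nuclei, where 2 of 11 partners tested passed (2.38% of all genes did). Dpp10 went from 6 and 2 UMIs to 43 and 102. It came through the count filter by the older libraries alone, so its test is no independent support.

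Melanotrope-, pituicyte- and macrophage-like nuclei had 1 call each with edgeR, and 0 with DESeq2 (3, 1 and 1 members at an unadjusted p under 0.05). Kcnh7 rose in melanotrope-like nuclei (1 of 41 members, 2.44%, against 1.52% of all genes), at 53.8, 107, 105 and 172 CPM. Kcnq3 rose in pituicyte-like nuclei (1 of 9, against 1.09%), with 0, 21, 66 and 104 UMIs, of which 1 nucleus gave 10, 25 and 23 in the last 3 libraries. With no filter on low counts, its adjusted p there was 0.794 in edgeR. Kcnma1 fell in macrophage-like nuclei (1 of 7, against 0.393%), with 36, 14, 8 and 10 UMIs. It did not pass with size factors of the DESeq2 kind or without 5-month males (adjusted p = 0.913), and the somatotrope markers of those nuclei summed to 119600, 57000, 44130 and 17650 CPM. Somatotrope-like nuclei held Kcnma1 at a mean of 950 CPM, and the part of those markers in the result was not tested. With edgeR, 0 members passed in thyrotrope-like (32 tested), fibroblast-like (17) and endothelial-like nuclei (8), where 1.43%, 0.947% and 0.210% of all genes did. There 7, 4 and 2 members had an unadjusted p under 0.05, and DESeq2 called 0 in each.

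The 5 members Kcnd3, Kcnq3, Kcnip4, Kcnq1ot1 and Kcnmb2 were called in 3 or more classes. Kcnd3 rose in 4 (lactotrope-, somatotrope-, stem- and corticotrope-like), and Kcnq3 rose in 3 (somatotrope-, corticotrope- and pituicyte-like). Kcnd3 was highest in lactotrope-like nuclei. Lactotrope markers were also higher at 22 months in somatotrope-, stem- and corticotrope-like nuclei, and their part in the Kcnd3 results was not tested. Kcnip4 and Kcnq1ot1 passed as higher in 3 each. In corticotrope-like nuclei, however, Kcnip4 was higher at 22 months in labelled females only (ratio 2.77, against 0.927 in labelled males). Kcnmb2 fell in lactotrope-like nuclei and was higher at 22 months in corticotrope- and stem-like nuclei, where it lost its pass in 4 of 4 and 3 of 4 fits without 1 library. Kcnk1 rose in lactotrope-like and fell in stem-like nuclei. Kcnk2 fell in lactotrope-like nuclei, while in gonadotrope-like nuclei it was 153, 38.6, 293 and 78.2 CPM, higher at 22 months within each labelled sex (log2 fold 1.09, adjusted p = 0.00276, and -0.12 without 22-month males). The difference between classes was not tested.

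The comparison between labelled sexes, with labelled age as a term, gave 18 passes in 325 tests (0.67% of the tests of all genes passed), for 13 members. Of the 18, Kcnip1 in corticotrope-like nuclei came through the filter by the higher sex alone. All 18 had the same direction at both ages and 13 had the sexes apart, but 0 passed in all fits without 1 library, from which the age term had to be dropped, and 5 also passed with DESeq2. The share of all genes with the same direction or with labelled sexes apart was not counted here either. Those counts are no separate support. The 2 libraries of each labelled sex here are 1 with Xist and 1 with Y-linked transcripts. This comparison therefore does not divide the libraries by those transcripts.

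Gonadotrope-like nuclei had 8 of these calls among 47 members (17.0%, against 1.48% of all genes), 6 lower and 2 higher in labelled females (0.496% and 0.984% of all genes). Kcnk2 was at 153 and 293 CPM in the libraries labelled male and at 38.6 and 78.2 in those labelled female (log2 fold -1.89, SE 0.19, adjusted p = 0.00124). Kcnh1, an EAG channel, was at 18.2 and 6.63 CPM against 87.9 and 45.1 (log2 fold 2.50, SE 0.28, adjusted p = 0.00167). Kcnmb2 was at 48.0 and 68.3 CPM against 12.1 and 6.74 (log2 fold -2.59, adjusted p = 0.00312). The labelled sexes did not overlap for any of these, and the ratios pointed the same way at both ages.

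Kcng3 and Kcnh5 were also lower in labelled females and Kcna4 higher, at 74.2 and 64.0 CPM against 42.2 and 13.8. Kcnip4 and Kcnh7 passed as lower, but their labelled sexes overlapped, and without 22-month males their log2 folds became 0.29 and 2.34. The lowest adjusted p of any of the 8 in a fit without 1 library was 0.327, for Kcnmb2. With doublet calls kept in, edgeR passed 0 of 53 members in gonadotrope-like nuclei for labelled sex (15 at an unadjusted p under 0.05) and 0 of all 13205 genes. DESeq2, with doublet calls removed, passed 3 of the 47 (6.38%, against 0.387% of all genes).

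In somatotrope-like nuclei 2 of 52 members passed (3.85%, against 0.0918% of all genes), both higher in labelled females (0.0722%). Kcnq3 had ratios of females over males of 10.3 at 5 months and 6.35 at 22 months (log2 fold 2.92, SE 0.20, adjusted p = 0.0198). For Kcnt2 the ratios were 3.98 and 7.41 (log2 fold 2.42, SE 0.23, adjusted p = 0.0455). Their values are given above, and the labelled sexes were apart for both. The lowest adjusted p without 1 library was 0.788 for Kcnq3 and 0.527 for Kcnt2.

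In corticotrope-like nuclei 3 of 29 passed (10.3%, against 1.30% of all genes), all higher in labelled females (0.974%): Kcnip4, Kcnq3 and Kcnip1 (4, 19, 2 and 11 UMIs). In the 22-month female library, 1 nucleus held 28.7% of the Kcnip4 UMIs and 1 nucleus 49.0% of the Kcnq3 UMIs. In the 5-month female library, 1 nucleus held 38.1% of the Kcnq3 UMIs. Kcnip1 came through the count filter by the libraries labelled female alone. Melanotrope-like nuclei had 1 of 41, Kcnh7 (2.44%, against 1.05%), with females at 107 and 172 CPM and males at 53.8 and 105. Pituicyte-like nuclei had 2 of 9 (22.2%, against 0.988%): Kcnc2, lower in labelled females (22, 10, 83 and 3 UMIs; 0.7% of all genes were lower), and Kcnq3, higher (0.288%). With no filter on low counts, the adjusted p of Kcnc2 and Kcnq3 there was 0.963 in edgeR. In that setting 0 of 54 members passed (5 at an unadjusted p under 0.05) and 0 of all 17307 genes. For Kcnq3, 1 nucleus held 47.6%, 37.9% and 22.1% of the UMIs of the last 3 libraries. Stem-like nuclei had 2 of 23 (8.70%, against 1.32%): Kcnip4, higher in labelled females at 241 and 331 CPM against 154 and 92.7 (0.769% of all genes were higher), and Kcnh8, lower (0.549%). With doublet calls kept in, 0 of 37 members passed in stem-like nuclei (5 at an unadjusted p under 0.05). DESeq2 called 0 members in corticotrope-, melanotrope-, pituicyte- and stem-like nuclei, where 3, 1, 1 and 2 had an unadjusted p under 0.05. With edgeR, 0 members passed in lactotrope-, thyrotrope-, fibroblast-, endothelial- and macrophage-like nuclei, where 0.248%, 0.0197%, 0.373%, 0.105% and 0.337% of all genes passed. There 9, 9, 4, 4 and 3 members had an unadjusted p under 0.05. DESeq2 called 2 of 60 in lactotrope-like nuclei (3.33%, against 0.727% of all genes) and 0 in the others.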

How the data were processed

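UMI counts were deposited by the authors as 1 matrix per library, made by Cell Ranger 7.0.1 per the file headers, with genome mm10 per the submitters' processing notes. The sources used here do not say if reads in introns entered the counts. The members and gene lists were chosen with earlier results of these data known. Barcodes with under 500 genes or over 5% mitochondrial counts were removed, then Scrublet doublet calls (12.5% to 16.8%, at 1 threshold of 0.118, the median of the automatic ones). Nuclei were clustered in scanpy 1.11.5 (3000 variable genes, 30 components, 15 neighbours, Leiden resolution 1). Clusters were named by marker lists, with a minimum score of 1.5 and a lead of 1, both settled after clusters were seen, and 3 stayed unnamed.

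Counts were summed per class and library and tested with edgeR 4.0.16 (quasi-likelihood, TMM, its filter on low counts, Benjamini-Hochberg adjustment over all genes), with DESeq2 1.42.0 as an alternative. The scripts were tested on simulated data. In corticotrope- and stem-like nuclei the fit gave all genes the same spread, and in macrophage-like nuclei nearly so. Their p-values therefore cannot be ranked against those of other classes. The SE is the fold over the square root of F. CPM intervals are exact Poisson and ratio intervals exact binomial, at 95%, and cover counting error only. Per class, up to 5 class-pattern members and up to 8 that passed were named by largest ratio or fold, with 34 members and 27 partners named by list; further ones (such as Kcnk13, Kcnk12 and the low-count members) were named after their values were seen. Genes that overlap on opposite strands (Kcnq1 and Kcnq1ot1, Kcnmb4 and Kcnmb4os2) can share reads if strand was not used. Some genes are counted but not reported here by name.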

Additional observations from a re-analysis of the deposited data

Results flagged for a closer look

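Kcnip4 in corticotrope-like nuclei passed for labelled age in edgeR (log2 fold 0.73, adjusted p = 0.0119) while the 2 labelled sexes moved in opposite directions. The ratio of 22 over 5 months was 0.927 in labelled males (95% counting interval 0.803 to 1.07) and 2.77 in labelled females (2.46 to 3.11). The difference between the labelled sexes was not tested. In the 22-month female library 1 of 67 nuclei held 245 of the 853 UMIs.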

How the results depend on the processing

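Labelled age gave 63 calls over the classes, against 32 with DESeq2 and 29 without labelled sex as a term. Leaving out each library, which also drops that term and leaves 1 sample in an arm that is assumed to vary like the others, gave 22 to 47. Labelled sex gave 18 calls, against 8 with DESeq2, 38 with no filter on low counts, 0 without labelled age as a term, and 3 to 12 without 1 library. In edgeR with that term dropped, 10 members had an unadjusted p under 0.05 for labelled sex in gonadotrope-like nuclei, the most of any class. The class pattern of 24 members ranged from 24 to 29 without 1 library, and its members kept their class in each alternative except doublet calls kept in (22 of 24).

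Some directions reversed. With each library left out in turn, the log2 folds for labelled age ran from -0.50 to 1.85 for Kcnip4 in corticotrope-like nuclei, from -0.16 to 4.13 for Kcnq3 and from -0.18 to 3.13 for Kcnt2 in somatotrope-like nuclei, each lowest without 22-month females. In gonadotrope-like nuclei they ran from -0.12 (without 22-month males) to 2.38 for Kcnk2 and from -2.88 to 0.62 (without 5-month females) for Kcnh1. For labelled sex there, they ran from -3.05 to 0.29 for Kcnip4 and from -4.65 to 2.34 for Kcnh7, both highest without 22-month males. With doublet calls kept in, Kcnj3 and Kcnmb2 in stem-like nuclei became -0.070 and -0.12 for labelled age. The cause was not tested. Of 70 named folds, 3 lost their pass with size factors of the DESeq2 kind, 3 at a Leiden resolution of 2, 4 with no filter on low counts, 23 with doublet calls kept in (2 more reversed), 47 without the other labelled factor and 35 with DESeq2 (31 passed, the rest had no adjusted p). Over 4 fits without 1 library each, 95 fits of the 70 kept their pass, 178 lost it and 7 reversed.

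No paired analysis was possible because each group has 1 library and the labels give no replicate numbers. On simulated data, 58 of 100 genes changed 4-fold were recovered in macrophage-like nuclei for labelled age, and 92 of 100 in lactotrope-like nuclei. These classes differ in depth and in spread (common dispersion 0.0598 and 0.0193), which were not separated.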

Other observations

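A few values rested on 1 library, and these were looked for after the data were seen. The rule was a CPM at least 5 times that of each other library, with at least 30 UMIs. It found 4 pairs of member and class, all in the library labelled 22-month females. Kcnk10 in thyrotrope-like nuclei had 9, 6, 11 and 167 UMIs, the last from 72 of 239 nuclei. Kcnq3 in the same class had 5, 2, 5 and 80 UMIs, the last from 37 nuclei. Kcnt2 in lactotrope-like nuclei had 33, 23, 81 and 718 UMIs, the last from 276 of 3528 nuclei.

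Kcnq5 in corticotrope-like nuclei was of another kind. It had 1, 0, 1 and 111 UMIs, and 110 of the 111 came from 1 of 67 nuclei. Of the 63 passes for labelled age, 8 had more than 20% of the UMIs of some library (with at least 20) in 1 nucleus, and of the 18 for labelled sex, 4. The highest share was 61.9%, for Kcnmb2 in stem-like nuclei, and the medians were 6.67% and 13.6%.

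The clusters that hold lactotrope-like nuclei labelled 22 months, also looked at after the data were seen, differed among themselves. Kcnip4 was at 504, 470, 654 and 242 CPM in clusters 18, 19, 20 and 21, against 201 CPM in cluster 5. Kcnk10 was at 42.3, 34.4, 79.2 and 47.4 CPM in them, against 5.28 CPM in cluster 5. Kcnmb2 was at 64.5 CPM in cluster 18 and at 6.98, 5.46 and 7.05 CPM in clusters 19 to 21, against 118 CPM in cluster 5. Unnamed cluster 16, of 938 nuclei (277 and 654 from the libraries labelled 22 months), held Kcnmb2 at 686 CPM and Kcnk2 at 450 CPM. The lymphocyte-like cluster, too small to be used above (58 nuclei), held Kcnq5 at 380 CPM on 72 UMIs.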
